A study of Mus musculus with 4 samples.

Results

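The 10 genes described here mark the macrophages of erythroblastic islands in bone marrow and were followed on 4 mouse arrays: C1qa, C1qb, C1qc, Spic, Hmox1, Slc40a1, Cd163, Mrc1, Axl and Emr1. Emr1 is the older name of Adgre1, which encodes F4/80. The genes were taken by name, not by their values, from the gene names in the spot files, and 12 of the 61307 probes carry them. They are 10 of the 29353 genes on the arrays, and Spic and Emr1 have 2 probes each.

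The arrays hold RNA of cells sorted from the bone marrow of C57BL6/J mice, aged 7 weeks per the labels. CD45-negative cells, which the labels call stromal or niche cells, were taken at day 10 from recipients and at day 0 from healthy mice. LSK cells (positive for Sca-1 and c-kit and without lineage markers), the fraction that contains blood stem and early progenitor cells, were taken at the same 2 times. The recipients carried the CD45.1 form of the leukocyte antigen CD45, received 700 cGy of radiation and were injected with 30000 LSK cells of CD45.2 donors. The day 0 mice were neither irradiated nor transplanted, so the day 10 groups differ from them in radiation, in the graft and in time together. One label describes the stromal sort as CD45.1-negative and others as CD45-negative; a sort against CD45.1 alone would keep CD45.2 donor blood cells, and which antibody was used cannot be told from the labels. Whether mice were pooled, and their sex, are not given in the sources used here. Each group has 1 array, so no difference below has a test, a p-value or a spread between mice, and precision is limited by the number of arrays.

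Erythroblastic islands are the marrow units in which a central macrophage holds a ring of maturing red cell precursors. The macrophage binds the erythroblasts, engulfs the nuclei that they expel, breaks down haem and hands iron back. C1q is the recognition molecule of the classical complement pathway and is made mainly by macrophages. Spi-C is the transcription factor required for red pulp macrophages of the spleen and for the iron-recycling macrophages of the marrow. Hmox1 and Slc40a1 act in haem breakdown and iron export, Cd163 and Mrc1 are scavenger and mannose receptors, Axl is a receptor for the engulfment of dying cells, and F4/80 is a general surface marker of mouse macrophages.

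C1qb, C1qc and C1qa are neighbours on chromosome 4 in the RefSeq gene table, with no other gene between them. RefSeq promoters (GRCm38.p6, 250 bases before to 50 after the start) were found for 6 of the 10 genes. Those of C1qb (chr4:136886151-136886450, minus strand) and C1qc (chr4:136892865-136893164, minus strand) are shown because these 2 genes were measured on all 4 arrays and lay on the same side of 0 in 3 of the 4 comparisons below. Capitals mark GAGGAA, the core letters of PU.1 and Spi-C sites, or its reverse complement TTCCTC, and in C1qb also the antioxidant response core TGACNNNGC, here on the opposite strand as GCGTCGTCA.
C1qb: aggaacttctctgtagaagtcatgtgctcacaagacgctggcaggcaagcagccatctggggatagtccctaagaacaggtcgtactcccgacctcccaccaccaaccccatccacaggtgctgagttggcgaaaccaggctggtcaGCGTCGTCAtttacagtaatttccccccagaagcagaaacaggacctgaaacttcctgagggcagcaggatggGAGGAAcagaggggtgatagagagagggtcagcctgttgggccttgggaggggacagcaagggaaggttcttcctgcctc
C1qc: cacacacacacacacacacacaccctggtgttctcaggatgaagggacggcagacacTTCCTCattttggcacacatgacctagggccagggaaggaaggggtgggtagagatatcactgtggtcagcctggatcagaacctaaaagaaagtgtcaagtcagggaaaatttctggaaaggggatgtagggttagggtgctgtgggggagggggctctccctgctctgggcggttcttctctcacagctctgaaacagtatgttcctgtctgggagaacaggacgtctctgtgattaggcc
No promoter was found for C1qa, Hmox1, Slc40a1 and Emr1, so neither motif was searched for in these genes. GAGGAA on either strand was present in 4 of the 6 promoters (C1qb, C1qc, Mrc1 and Axl) and in 28.3% of 32851 RefSeq promoters of the same length. TGACNNNGC on either strand was present in the C1qb promoter alone among the 6, and in 12.4% of all promoters. The motifs share no bases in these promoters, and a match is a run of letters, not a bound site.

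All levels are log2 of the processed spot signal (background-subtracted fluorescence) relative to the 75th percentile of the same array, and differences are day 10 minus day 0 or CD45-negative minus LSK cells. The error beside a difference is the scanner software's spot error, carried over from both arrays; it covers the measurement of the spot and nothing between mice. A gene was measured where its spot was well above background on both arrays by the software's flag. Of the 10 genes, 6 were well above background in CD45-negative cells at day 10 and 5 at day 0, and 9 were so in LSK cells at day 10 and 7 at day 0. Below, a gene called above background is one with this flag, and a gene without it may still carry some signal. The lowest level called above background was -4.24 and -3.15 in CD45-negative cells at day 10 and day 0, and -4.12 and -3.95 in LSK cells. Relative to the 75th percentile of its array, a dim gene therefore had to be brighter to be called in CD45-negative cells at day 0 than on the other arrays. That percentile was itself lowest there, at a signal of 116, against 199 to 315 on the other arrays.

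**Figure D1:**
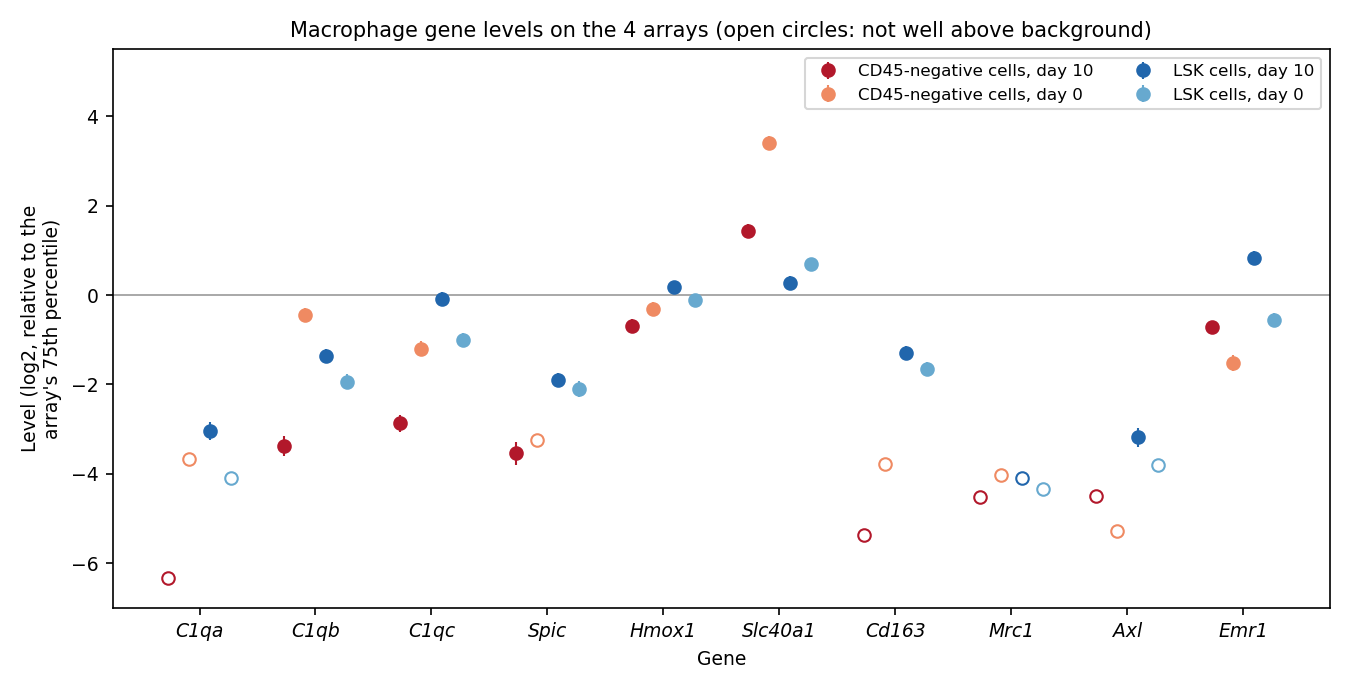
Level (log2, relative to the array's 75th percentile) of the 10 genes on each array, with bars for the scanner software's spot error where they exceed the marker. Filled circles are well above background and open circles are not. Slc40a1 is brightest in CD45-negative cells at day 0 (3.40), Emr1 is brightest in LSK cells at day 10 (0.83), and Mrc1 is not well above background on any array.

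In CD45-negative cells C1qb, C1qc and the iron exporter Slc40a1 were lower at day 10 than at day 0. Scaled to spike-in controls, these genes were higher at day 10. Emr1 was above 0 under every scaling tried. Relative to the median of all genes, Emr1 was at 0.61, with a range of 0.0 to 0.61 over 11 settings. Of the 5 genes measured, 3 (C1qb, C1qc and Slc40a1) were lower by 2-fold or more and 0 were higher by that size. Of all 14510 genes measured, 17.9% were that much lower and 23.6% that much higher. Their median difference was -1.67, against 0.19 over all genes. In LSK cells the genes measured were within 2-fold of day 0 at day 10, apart from Emr1. Of 7 measured, 1 (Emr1) was higher by 2-fold or more and 0 were lower by that size, where 1.44% of 16408 genes were higher and 2.68% lower. Their median difference was 0.37, against -0.005 over all genes. The 2-fold line is a size here, not a test.

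The directions in CD45-negative cells depend on what the arrays are scaled to. The 75th percentile of the processed signal was 315 at day 10 and 116 at day 0, while the 5 spike-in control probes were lower at day 10 by 1.82 log2 units (a difference of -1.82). Scaling to the spike-ins adds 3.26 to every difference between these 2 arrays, and the median over all genes becomes 3.45; C1qb, C1qc and Slc40a1 then stand at 0.33, 1.59 and 1.30 and are higher at day 10. The other 6 scalings or corrections gave a median over all genes of 0.16 to 0.65 and left the 3 genes at least 2-fold lower. Relative to the median of all genes, C1qb was at -3.12 (range -3.13 to -1.99 over 11 settings), C1qc at -1.86 (-1.87 to -1.43) and Slc40a1 at -2.15 (-2.31 to -1.84), spike-in scaling included. In bulk RNA of sorted cells, fewer cells of a type and less RNA per cell cannot be told apart.

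**Figure D2:**
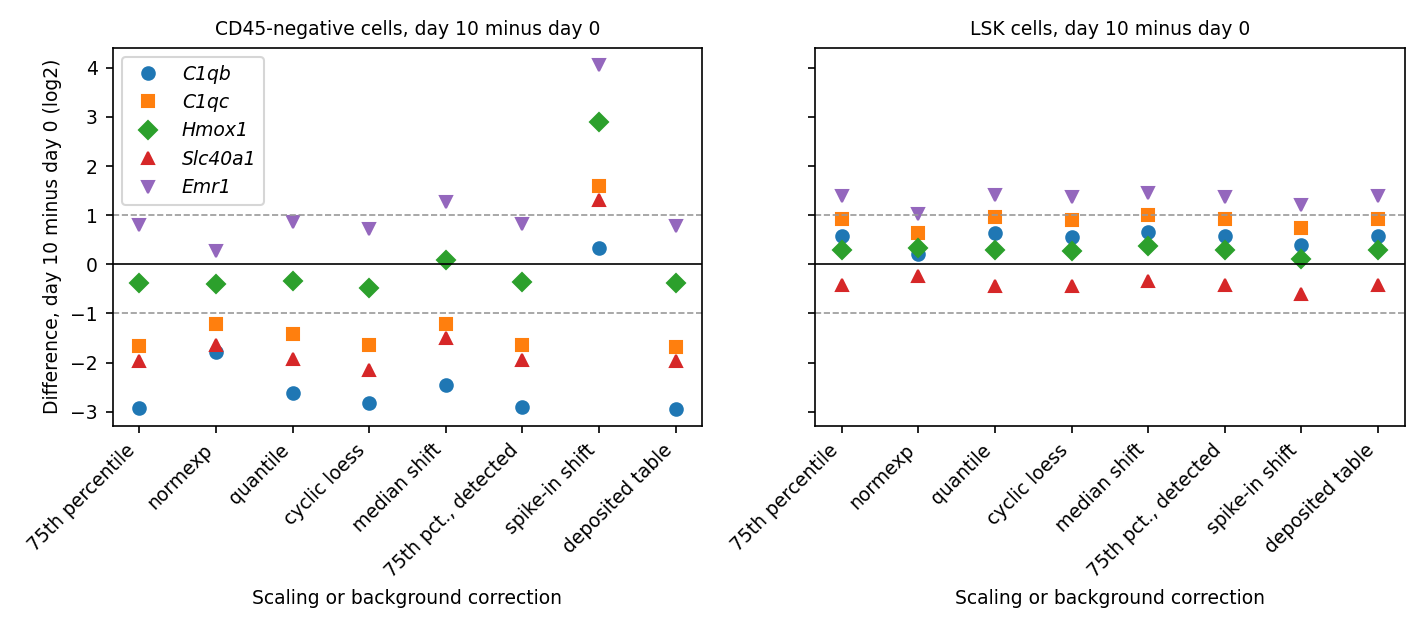
Day 10 minus day 0 difference (log2, vertical axis) of the 5 genes measured in both populations under 8 scalings or background corrections (horizontal axis), for CD45-negative cells on the left and LSK cells on the right; dashed lines mark 2-fold. In CD45-negative cells C1qb, C1qc and Slc40a1 lie below -1 under every one except the spike-in shift, where they stand at 0.33, 1.59 and 1.30; in LSK cells Emr1 lies above 1 throughout.

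C1qb encodes the B chain of C1q. Its level was -3.38 in CD45-negative cells at day 10 and -0.45 at day 0, and -1.37 in LSK cells at day 10 and -1.94 at day 0. It was thus brightest in CD45-negative cells at day 0 and dimmest in the same population at day 10, and each step in the order of the 4 arrays exceeded 2 spot errors. The day difference was -2.93 ± 0.27 (7.61-fold lower) in CD45-negative cells and 0.57 ± 0.22 in LSK cells. Under normexp background correction the difference was -1.79 in CD45-negative cells and 0.21 in LSK cells, the latter within the spot error of 0.22 above. With no detection filter, which brings in dim genes, the median over all genes between the 2 CD45-negative arrays was -0.66. C1qb itself was dim in CD45-negative cells at day 10, above 5.74% of the genes detected on that array. The unscaled signal was 30.3 in CD45-negative cells at day 10 and 84.9 at day 0, so it was lower before any scaling as well.

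C1qc encodes the C chain. Its level was -2.87 in CD45-negative cells at day 10 and -1.20 at day 0, and -0.085 in LSK cells at day 10 and -1.01 at day 0. LSK cells at day 10 were highest and CD45-negative cells at day 10 lowest, and the 2 day 0 arrays differed by 0.19, less than their combined error of 0.22. The day difference was -1.67 ± 0.26 (3.19-fold lower) in CD45-negative cells and 0.92 ± 0.21 in LSK cells. Unlike C1qb, its unscaled signals on the CD45-negative arrays were close, 43.1 at day 10 and 50.5 at day 0, so most of this difference enters with the scaling.

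In CD45-negative cells the day difference of C1qb lay below that of C1qc by a gap of -1.26 ± 0.37, which no per-array shift can alter but which is -0.56 under normexp background correction, under 2 such errors. In LSK cells the gap between them was -0.35 ± 0.31. C1qa, the A chain, was well above background in LSK cells at day 10 alone, at -3.05, and stood at -4.09 in LSK cells at day 0. It was at -6.33 in CD45-negative cells at day 10 and -3.68 at day 0, not well above background at either time. This puts it at least 1.87-fold higher at day 10 in LSK cells, and gives no fold between days in CD45-negative cells.

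Spic was above background on 3 arrays at its brighter probe. It stood at -3.54 in CD45-negative cells at day 10, just above the detection limit, and at -3.24 at day 0, not well above background. LSK cells had -1.91 at day 10 and -2.11 at day 0, a difference of 0.20 ± 0.23 that lies within the spot error. The second Spic probe was dimmer, at -4.03 in LSK cells at day 10 and -3.65 at day 0, and differed the other way by -0.38. Both LSK arrays were above both CD45-negative arrays at the brighter probe.

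Hmox1 encodes the inducible haem oxygenase, which opens the haem ring and frees its iron. Its level was -0.69 in CD45-negative cells at day 10 and -0.32 at day 0, and 0.18 in LSK cells at day 10 and -0.12 at day 0. The day difference was -0.38 ± 0.21 in CD45-negative cells, with 0.087 under a median shift and 2.89 under the spike-in shift, and 0.29 ± 0.21 in LSK cells. No neighbouring levels in its order differed by more than 2 spot errors.

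Slc40a1 encodes ferroportin, the iron exporter. Its level was 1.44 in CD45-negative cells at day 10 and 3.40 at day 0, and 0.27 in LSK cells at day 10 and 0.69 at day 0. Both CD45-negative arrays were above both LSK arrays, and every step in the order exceeded 2 spot errors. The day difference was -1.96 ± 0.20 (3.90-fold lower) in CD45-negative cells and -0.42 ± 0.21 in LSK cells. Unscaled signals on the CD45-negative arrays were 856 at day 10 and 1229 at day 0, so most of that difference enters with the scaling. Ferroportin is also expressed by red cell precursors, so its level is not specific to macrophages.

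Cd163, the haptoglobin-haemoglobin scavenger receptor, was above background in LSK cells alone. It stood at -1.30 in LSK cells at day 10 and -1.66 at day 0, a difference of 0.37 ± 0.22. In CD45-negative cells it was at -5.38 at day 10 and -3.77 at day 0, not well above background at either time. Mrc1, the mannose receptor, was not well above background on any array, with -4.53 in CD45-negative cells at day 10 and -4.03 at day 0, and -4.09 in LSK cells at day 10 and -4.35 at day 0. Axl was above background in LSK cells at day 10 alone, at -3.19, against -3.79 at day 0. This is a plain difference of 0.61 (1.52-fold) from a dim spot and not a minimum, and it is under 2 combined errors of 0.415. In CD45-negative cells Axl was at -4.50 at day 10 and -5.29 at day 0, not well above background at either time.

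Emr1 went against the C1q genes in CD45-negative cells. Its level was -0.73 in CD45-negative cells at day 10 and -1.52 at day 0, and 0.83 in LSK cells at day 10 and -0.55 at day 0. In each population the day 10 array was the higher one, by 0.79 ± 0.23 (1.73-fold) in CD45-negative cells and by 1.39 ± 0.21 (2.61-fold) in LSK cells. Its second probe was not well above background on any array, and with both probes averaged the differences were 0.14 and 0.53. With probes averaged the medians over all genes were 0.14 in CD45-negative cells and 0.01 in LSK cells. Emr1 then stood at the median of all genes in CD45-negative cells. Under normexp background correction its difference there was 0.27, against a median of 0.20 over all genes. Between days in CD45-negative cells, Emr1 and C1qb moved apart by 3.72 ± 0.35 (13.2-fold), Emr1 and Slc40a1 by 2.76 ± 0.31, and Emr1 and C1qc by 2.47 ± 0.34. These gaps hold under any shift of a whole array, the spike-in shift included, and under normexp they were 2.06, 1.91 and 1.49. With both probes of Emr1 averaged they were 3.07, 2.11 and 1.815.

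**Figure D3:**
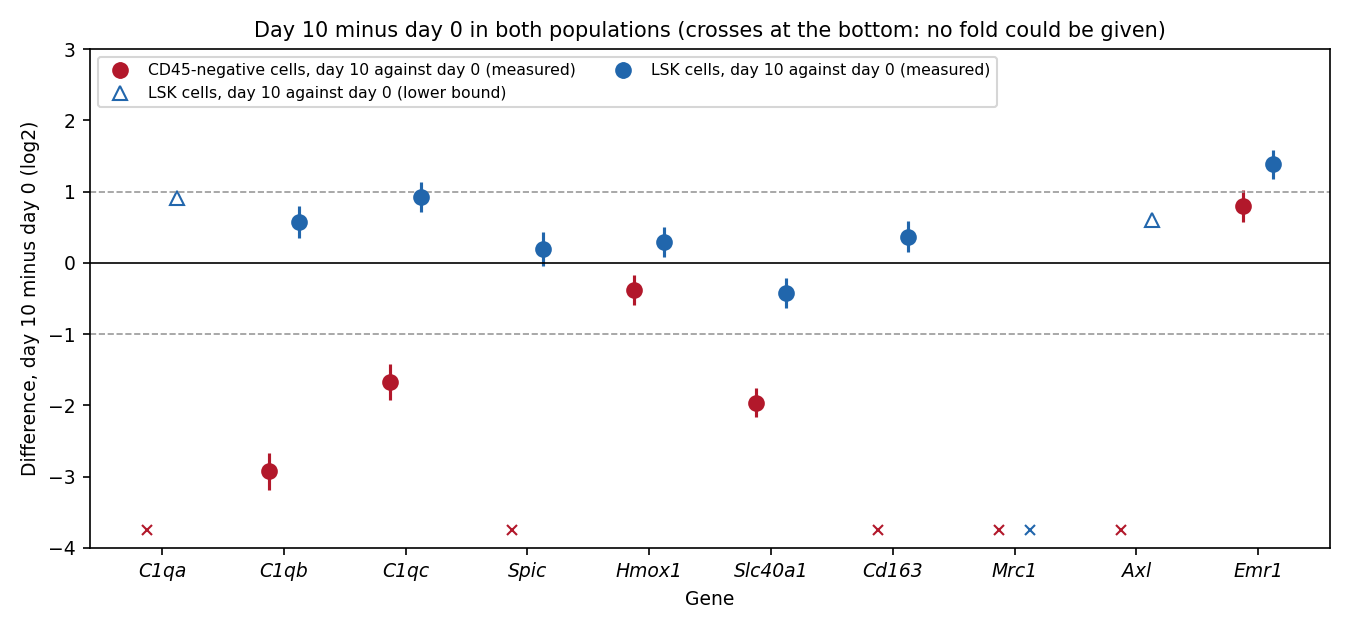
Day 10 minus day 0 difference (log2, vertical axis) of each of the 10 genes, in CD45-negative cells (red) and LSK cells (blue). Circles are measured differences with the combined spot error, and crosses mark genes with no fold. Open triangles are lower bounds, except that of Axl, which is the plain difference from its dim spot. C1qb is at -2.93 in CD45-negative cells, or 0.33 under the spike-in shift, and at 0.57 in LSK cells.

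Between populations, the ranking turned over with the day for C1qb and not for Slc40a1. The turnover of C1qb is lost under the spike-in shift, where it was lower in CD45-negative cells at day 0 (-0.27) and day 10 (-0.33). These comparisons reuse the arrays above, so they are the same levels read the other way. At day 0, 2 of the 5 genes measured were higher by 2-fold or more in CD45-negative than in LSK cells and 0 were lower by that size, where 17.7% of 14553 genes were higher and 21.8% lower. Slc40a1 was higher by 2.71 ± 0.20 (6.55-fold), and C1qb by 1.49 ± 0.22, which the spike-in shift turns to -0.27. C1qc and Hmox1 differed by -0.19 ± 0.22 and -0.20 ± 0.21, within the spot error, and Emr1 by -0.97 ± 0.23. Under the spike-in shift C1qc, Hmox1 and Emr1 stand at -1.95, -1.96 and -2.73, and Slc40a1 at 0.95. Cd163 was at least 2.81-fold lower and Spic at least 2.07-fold lower in CD45-negative cells.

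At day 10, 4 of 6 genes measured were lower by 2-fold or more in CD45-negative than in LSK cells and 1 was higher by that size, where 11.1% of 15848 genes were lower and 12.6% higher. The lower genes were C1qc (-2.79 ± 0.24), C1qb (-2.01 ± 0.27), Spic (-1.63 ± 0.30) and Emr1 (-1.56 ± 0.21). Under the spike-in shift, which adds 1.68, C1qc stands at -1.11, C1qb at -0.33, Spic at 0.047 and Emr1 at 0.12, and under normexp background correction C1qb and Spic are within 2-fold, at -0.99 and -0.81. Hmox1 differed by -0.87 ± 0.21, or 0.81 under the spike-in shift. Slc40a1 was higher in CD45-negative cells by 1.17 ± 0.20 (2.25-fold). Cd163 was at least 7.68-fold, C1qa at least 2.28-fold and Axl at least 2.07-fold lower in CD45-negative cells, but the spike-in shift leaves a bound for Cd163 alone, of 2.39-fold.

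Several defining markers of marrow resident macrophages were not well above background. Of 20 other markers of resident macrophages, 10 were well above background in CD45-negative cells at day 10 and 11 at day 0, and 16 were so in LSK cells at day 10 and 14 at day 0. Their summed level was 3.16 and 3.71 in CD45-negative cells at day 10 and day 0, and 5.44 and 5.09 in LSK cells. Mertk, Timd4 and Vsig4 were well above background on no array, and Siglec1, which encodes CD169, on the LSK day 0 array alone. Cd163 and Mrc1 were not well above background in CD45-negative cells. At either day fewer of the macrophage markers were well above background in the sort labelled stromal than in the LSK sort. Over all 29353 genes the direction, though not the size, was the same. At day 10, 16536 of them were so at any probe in CD45-negative cells and 17460 in LSK cells, and at day 0 15313 and 17023. Of all probes, 52.0% were so in CD45-negative cells and 56.6% in LSK cells at day 10, and 47.6% and 54.5% at day 0. The 10 genes are therefore described as genes, and not as a measured population of island macrophages.

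Other macrophage markers did not follow C1qb and C1qc as a group. In CD45-negative cells 2 of 9 measured (Vcam1 and Apoe, a lipid carrier, at -2.39 and -1.16) were lower by 2-fold or more at day 10 and 0 higher, with a median of 0.25 against 0.19 for all genes, and a median of 3.51 under the spike-in shift. Over all genes 17.9% were that much lower and 23.6% that much higher. Cd5l, a secreted macrophage protein, was 5.09-fold lower and Nr1h3, which encodes the liver X receptor alpha, 2.53-fold lower. Both folds are plain differences from spots not well above background at day 10, and not minimums. In LSK cells the median of these markers was 0.37, and over all genes 1.44% were higher by 2-fold or more and 2.68% lower. Of 13 markers measured, 2 were higher by that size at day 10 and 0 lower. They were Fcgr1, the high-affinity IgG receptor (1.90), and Treml4 (1.65), and Ms4a7 was at least 3.18-fold higher.

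Iron-handling genes were also lower in CD45-negative cells at day 10, except under the spike-in shift, where their median was 1.96. Of the 13 measured genes of the list for iron recycling and haem breakdown, 9 were lower by 2-fold or more and 1 higher, with a median of -1.31 (-1.32 to -0.84 under the other scalings). Over all genes 17.9% were that much lower and 23.6% that much higher, with a median of 0.19. The lower genes of the list include Blvrb, a biliverdin reductase (-3.37), Tfrc, the transferrin receptor (-3.24), and Slc48a1, the haem transporter of the phagosome (-2.74). Cp, the ferroxidase that works with ferroportin, was at least 6.84-fold lower. Slc11a1, the phagosomal metal transporter of macrophages, was the higher one, at 0.54 in CD45-negative cells at day 10 and -1.39 at day 0 (1.93). In LSK cells 0 of 14 genes of the list differed by 2-fold in either direction, where 1.44% of all genes were higher and 2.68% lower. The median of the list was 0.052, and Slc11a1 was at 0.99. At day 0 the list was higher in CD45-negative than in LSK cells, with 10 of 14 genes at least 2-fold higher and a median of 1.63, but of -0.14 under the spike-in shift. Over all genes 17.7% were that much higher, with a median of -0.083, or -1.845 under the spike-in shift. Blvrb, Tfrc and Slc48a1 are also abundant in red cell precursors.

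Among genes for adhesion to erythroblasts and for engulfment, 4 of 10 measured in CD45-negative cells were lower by 2-fold or more at day 10 and 1 higher, with a median of -0.91, or 2.36 under the spike-in shift. Over all genes 17.9% were that much lower and 23.6% that much higher, with a median of 0.19, or 3.45 under the spike-in shift. Icam4, the erythroblast ligand for integrins, was at 0.93 at day 10 and 5.34 at day 0 (-4.42). Dnase2a, which digests the DNA of engulfed nuclei, differed by -3.13, the bridging ligand Gas6 by -2.39 and the adhesion molecule Vcam1 by -2.39. Mfge8, a bridge to phosphatidylserine on dying cells, was higher by 1.24. Mertk and Tyro3, the receptors related to Axl, were not well above background in either population at either day. In LSK cells 0 of 12 genes of the list differed by 2-fold, where 1.44% of all genes were higher and 2.68% lower by that size. The median of the list was 0.040, against -0.005 over all genes, and Siglec1 was at least 2.82-fold lower at day 10.

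The complement partners of C1q split in CD45-negative cells. Of 9 measured, 4 were lower by 2-fold or more at day 10 and 1 higher, with a median of -0.61, or 2.65 under the spike-in shift. Over all genes 17.9% were that much lower and 23.6% that much higher, with a median of 0.19. Under normexp or the median shift 3 of the 9 partners were lower and 3 higher, with medians of -0.16 and -0.15. Cfb, the alternative pathway protease, differed by -1.94. Serping1, the inhibitor of the C1 proteases, was 9.22-fold lower, a plain difference from a spot not well above background at day 10. C4b, a substrate of C1, was at least 4.79-fold lower. Cd93, once described as a C1q receptor, was the higher one (1.45). In LSK cells Cfb was at least 2.62-fold higher at day 10.

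**Figure D4:**
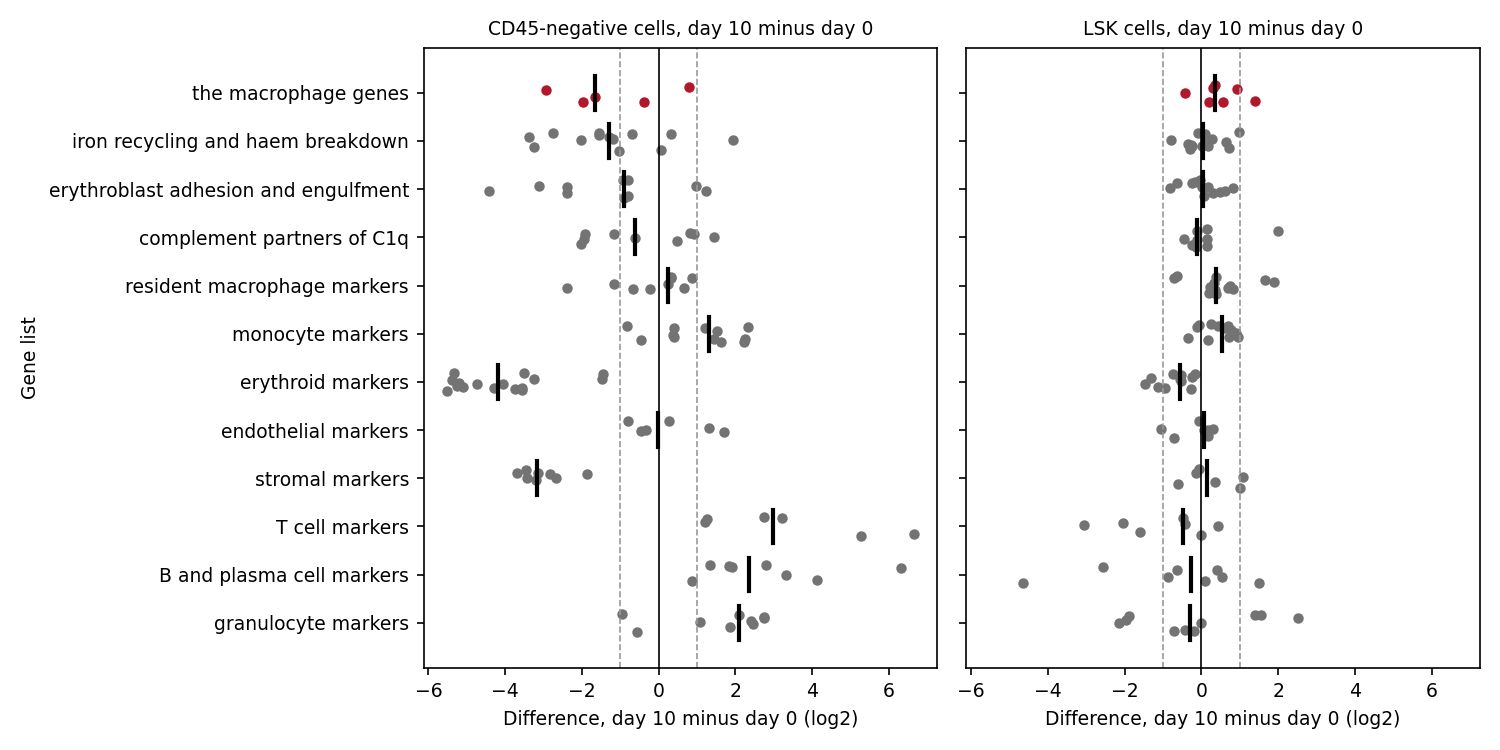
Day 10 minus day 0 difference (log2, horizontal axis) of each measured gene of the 10 macrophage genes (red) and of 11 lists (grey), in CD45-negative cells on the left and LSK cells on the right; black bars are medians and dashed lines mark 2-fold. In CD45-negative cells the erythroid median is -4.18, the stromal median -3.18 and the T cell median 2.98, and the spike-in shift adds 3.26 to every point of that panel.

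Levels of markers of several other cell types differed between the 2 CD45-negative arrays. The makeup of the sort itself was not measured. Over all genes 17.9% were lower by 2-fold or more at day 10 and 23.6% higher. All 16 erythroid markers were at least 2-fold lower at day 10 (median -4.18), with a summed level of 9.17 at day 10 and 11.8 at day 0. Alas2, the haem synthesis enzyme of red cells, was at 3.53 at day 10 and 9.04 at day 0. All 8 measured stromal markers were at least 2-fold lower (median -3.18, summed level 3.81 at day 10 and 7.15 at day 0), and another 4 had bounds in that direction, while Lepr, Pdgfra, Col3a1 and Ebf3 were not well above background at day 10. Blood cell markers were higher at day 10: all 6 measured T cell markers (median 2.98, summed level 6.22 at day 10 and 3.20 at day 0), 7 of 8 B and plasma cell markers, 7 of 9 granulocyte markers and 7 of 12 monocyte markers were so by at least 2-fold. Under the spike-in shift the stromal median was 0.081, the erythroid median -0.92 and the T cell median 6.24. Ptprc, the gene of CD45, was above background on all 4 arrays, at 5.58 in CD45-negative cells at day 10 and 3.10 at day 0, and at 4.25 in LSK cells at day 10 and 4.18 at day 0. The part of these differences in those of C1qb, C1qc, Slc40a1 and Emr1 was not tested.

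In LSK cells the medians of the erythroid, stromal, T cell, B and plasma cell, granulocyte and monocyte lists differed less between days. Over all genes 1.44% were higher by 2-fold or more at day 10 and 2.68% lower. The erythroid list had 0 genes higher by 2-fold and 3 of 11 lower by that size (median -0.55), the monocyte list had 0 of 12 by 2-fold either way (median 0.53), and the granulocyte list had 3 of 10 each way (median -0.31). Single lymphoid genes differed by more. Of 7 T cell markers measured, 3 were lower by 2-fold or more and 0 higher (median -0.49), with Cd8a at -3.05 and Cd3d at -2.04. Of 8 B and plasma cell markers, 2 were lower by that size and 1 higher (median -0.26). Jchain was at -4.635, and Tnfrsf17 was at least 13.3-fold lower. The summed level of the monocyte markers was 8.09 at day 10 and 7.85 at day 0. Lyz2, the macrophage and granulocyte lysozyme, was at 6.41 at day 10 and 5.46 at day 0. Their part in the differences of Emr1 and C1qc in LSK cells was not tested.

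Genes whose 4 levels ran most like those of each gene measured on all 4 arrays were ranked by Euclidean distance of centred levels, over 10477 genes. For C1qc the nearest was Apoc1, an apolipoprotein gene, at 0.35, with -2.83 in CD45-negative cells at day 10 and -1.07 at day 0, and -0.35 in LSK cells at day 10 and -0.82 at day 0. For Emr1 the nearest were Naaa (0.17), Qsox1 (0.26) and Treml4 (0.36). For Slc40a1 they were Wdr44 (0.12), H2bc23 (0.19) and Ypel5 (0.21), and for Hmox1 Chrna9, Mdm4 and Gadd45gip1 (0.024 to 0.085). For C1qb they were Lce1b, Olfr569 and Galr3, at 0.24 to 0.27. Like C1qb, these were dim in CD45-negative cells at day 10, at -2.71, -3.76 and -3.15, against 0.36, -0.82 and -0.34 at day 0. A likeness over 4 arrays, with 1 sample each, is a description of these arrays.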

How the data were processed

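Per the labels' protocols, total RNA was extracted from the sorted cells of 4 groups, reverse transcribed from an oligo-dT primer, and Cy3-labelled cRNA was hybridised to 1-colour Agilent mouse 8x60k arrays. Per the submitters' processing notes and the file headers, the spots were read with Agilent Feature Extraction 10.5.1.1. The deposited spot files hold fluorescence intensity: a mean signal, a local background and a background-subtracted (processed) signal. Values of the deposited series table are on a log2 scale and equal log2 of the processed signal minus a constant within 0.001 for 99.977% to 99.985% of probes. Flags for detection, saturation and outliers in the deposited spot files are codes, neither signals nor ratios. The design's build is mm9 per the file headers.

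Control and outlier spots were removed, log2 of the processed signal was taken, spots of a probe were averaged, and each array was set to 0 at its 75th percentile. Of several probes of a gene, the one brightest on average was used. Symbols were updated through RefSeq accessions (28136 of 40628 gene probes matched); 20679 noncoding probes were kept apart. A gene above background on 1 array alone has a bound, against the dim array's lowest level above background or the dim probe's own level, whichever is higher, and no fold where this is under 1. Where the dim probe's own level is the higher, the bound is the plain difference and not a minimum. The spot error has a multiplicative part of 10% per the file headers. Replicate spots within an array had a median SD of 0.083 to 0.10 log2 units. All 4 arrays share 1 slide and scan. Steps were tested on simulated data. Python 3.11.15, numpy 2.4.6, pandas 2.3.3, R 4.3.3 and limma 3.58.1 were used.

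The 10 genes, the 11 lists (143 genes, all on the array), the 2-fold size and the alternatives were chosen with earlier results of these data known. Named genes follow a rule: the 10 genes, up to 4 genes of a list with the largest difference or bound in CD45-negative cells and up to 2 in LSK cells, the 3 nearest genes by distance, and Ptprc. Slc11a1, Mfge8, Cd93 and Treml4 were named as the single higher genes after their values were seen, and genes listed as not well above background were named for that reason. A gene of the complement list is not reported here by name. The alternatives were normexp background correction (limma, offset 50), cyclic loess or quantile normalization, shifts to the median, to the spike-in controls or to the 75th percentile of the probes above background on every array, the deposited table, 2 other probe rules, 3 other detection filters and a 1.5-fold size.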

Additional observations from a re-analysis of the deposited data

Results flagged for a closer look

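The genes C1qb, C1qc and Hmox1 differed between days in opposite directions in the 2 populations, which is what drew attention to them. That flag asks only for opposite signs, whatever their size, and the share of all genes that meet it was not computed. With 1 array per group the difference between populations was not tested. For C1qb the day difference in CD45-negative cells lay 3.50 below that in LSK cells (-3.50 ± 0.35), for C1qc 2.60 below (-2.60 ± 0.33), and for Hmox1 0.67 below (-0.67 ± 0.29). For Hmox1 each of the 2 day differences was under 2 spot errors. The opposite directions of C1qb, C1qc and Hmox1 are lost under the spike-in shift, and that of Hmox1 also under the median shift. The errors are spot errors of the scanner software and leave out any spread between mice.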

How the results depend on the processing

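No paired analysis was possible because each group has 1 array. The spike-in shift changed directions: in CD45-negative cells between days, 4 genes were then at least 2-fold higher and 0 lower, the median of the 5 genes was 1.59, and C1qb, C1qc and Slc40a1 stood at 0.33, 1.59 and 1.30. It put the LSK median at 0.19, the day 10 median between populations at 0.084 with 1 gene lower by 2-fold, Spic at 0.047 and Emr1 at 0.12, and the day 0 median at -1.95 with 3 genes lower, 0 higher and C1qb at -0.27. This shift raises the share of higher genes among all genes past 2-fold in CD45-negative cells to 99.0%, against 56.9% by the 75th percentile. That share was 76.4% under the median shift. In LSK cells it was 35.0%, against 45.5% and 16.8% under the median and spike-in shifts. Between populations it was 53.3% at day 10 (66.2%, 82.0% and 99.1% under cyclic loess, median and spike-in shifts) and 44.8% at day 0 (4.71% under the spike-in shift). For the spike-in shift and the other alternatives the cause was not tested.

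Medians of the measured genes otherwise moved in size. In CD45-negative cells between days the median was -1.22 under normexp, -1.42 under quantile normalization, -1.21 under the median shift, and -1.05 with no detection filter or with the positive-and-significant flag, which bring in dim genes. In LSK cells it was 0.21 under normexp and 0.57 over genes detected on all 4 arrays. Between populations at day 10 it was -0.90 under normexp, -1.40 under quantile, -1.27 under cyclic loess, -1.18 under the median shift and -1.73 with probes averaged. At day 0 it changed sign to 0.13 under normexp and 0.0036 under cyclic loess.

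Counts past 2-fold moved by 1 or 2 genes in most cases. In CD45-negative cells between days, 1 gene (Emr1) was higher under the median shift or at 1.5-fold, and 5 were lower with no detection filter. In LSK cells 0 were higher with probes averaged, and 2 with no filter, with the other flag or at 1.5-fold. At day 10 between populations 2 were lower under normexp and 7 with no filter. At day 0, 1 was lower with the percentile of probes detected on all arrays, with probes averaged or at 1.5-fold, 2 with the other flag and 3 with no filter. Over all genes, the counts higher and lower by the main processing were 3419 and 2591 in CD45-negative cells between days, with 2885 to 13695 and 136 to 10878 over the alternatives. They were 236 and 439 in LSK cells (74 to 1454 and 153 to 1955), 2003 and 1753 between populations at day 10 (1474 to 12793 and 120 to 4849), and 2571 and 3172 at day 0 (558 to 5685 and 2522 to 11282). The remaining 119 values of counts and medians stayed within 1.5-fold or within the spread of replicate spots. Signal over background limits C1qa, Cd163, Mrc1 and Axl in CD45-negative cells, which were not well above background on either array.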
